A study of Mus musculus with 6 samples.

Results

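The genes of the TREM receptors (triggering receptors expressed on myeloid cells) and of the proteins that carry their signals were followed in cultured mouse macrophages with and without a functional aryl hydrocarbon receptor repressor. Genes were chosen by symbol: the 4 receptor genes Trem1, Trem2, Trem3 and Treml4, the 2 adaptor genes Tyrobp (the adaptor DAP12) and Hcst (the adaptor DAP10), and the kinase gene Syk. All 7 had a row among the 16111 named genes of the deposited table, and 6 passed the filter on low counts that left 11408 genes tested. Trem3 did not pass it. The 7 genes were picked with their difference between the genotypes already known, so their levels, fold changes and place beside the threshold of the fit over all genes are a description, and no p-value of theirs is printed.

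Both groups were macrophages of the strain C57BL/6 RCC, grown from the liver of fetuses at E13.5. After 5 weeks in RPMI medium that contained GM-CSF (2%), which keeps macrophages alive and dividing, the cells that did not adhere were collected. There were 3 libraries from wild-type (WT) fetuses and 3 from AhRR-/- fetuses, whose genotype is labelled Ahrr, each with a mouse number of its own within its group. How the Ahrr allele was made is not given in the sources used here, and no treatment other than the culture is named. Nothing beyond the mouse number says that the cultures were separate, so the p-values below measure the spread between these samples, which may in part be technical.

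TREM receptors sit on myeloid cells with very short tails of their own. They pair in the membrane with DAP12, whose immunoreceptor tyrosine-based activation motif (ITAM) is phosphorylated by Src-family kinases and then binds Syk, which starts calcium release, cytoskeletal change and gene expression. DAP10 carries a different tyrosine motif that recruits phosphoinositide 3-kinase. In macrophages TREM-1 is known for amplifying inflammatory responses, and TREM2 for sensing lipids and apolipoproteins, supporting phagocytosis and survival, and restraining some inflammatory signals. AhRR is a repressor of the aryl hydrocarbon receptor, a transcription factor that binds DNA with its partner ARNT at a short core motif.

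The sequence that joins the 2 adaptors to their different partners is the tyrosine motif of the tail. The coding bases are shown 5′ to 3′ from the longest open reading frames of the GENCODE M21 transcripts (GRCm38), with the codons of the signalling tyrosines in capitals. In Tyrobp, which has a tyrosine pair, they span codons 92 to 106 of 114. In Hcst, with a single tyrosine, they span codons 72 to 75 of 79.
Tyrobp: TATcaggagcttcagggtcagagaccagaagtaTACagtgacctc
Hcst: TACatcaacatg

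Promoters were compared because Trem1 and Trem2 lie in the same cluster and were both lower in Ahrr libraries, by very different amounts. RefSeq start sites (GRCm38.p6) were matched for 5 of the 7 genes, with a pair of starts for Syk, and the 250 bases before the start are shown 5′ to 3′ for Trem1 at chr17:48232489-48232738 and Trem2 at chr17:48346151-48346400, both on the + strand. Capitals mark matches to any of 5 motifs searched on both strands, chosen after these sequences had been seen.
Trem1: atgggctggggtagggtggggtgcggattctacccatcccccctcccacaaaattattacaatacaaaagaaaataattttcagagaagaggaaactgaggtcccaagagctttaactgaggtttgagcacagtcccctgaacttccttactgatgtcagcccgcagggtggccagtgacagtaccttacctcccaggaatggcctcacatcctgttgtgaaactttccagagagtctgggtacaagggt
Trem2: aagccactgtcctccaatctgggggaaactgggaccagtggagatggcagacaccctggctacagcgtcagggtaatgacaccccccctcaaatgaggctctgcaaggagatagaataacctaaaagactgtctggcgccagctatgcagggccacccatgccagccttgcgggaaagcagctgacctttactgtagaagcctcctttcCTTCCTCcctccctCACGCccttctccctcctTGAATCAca

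The motifs were GCGTG (the core bound by the aryl hydrocarbon receptor complex), GAGGAAG (a form of the PU.1 site), TGANTCA (AP-1), CACGTG (an E-box) and TATAAA (found in core promoters). In windows from 250 bases before to 50 bases after a start, GCGTG was found in 32.4% of 32851 mouse promoters, GAGGAAG in 13.6%, TGANTCA in 7.81%, CACGTG in 7.15% and TATAAA in 13.6%. The Trem2 window held GAGGAAG beginning 41 bases before the start, GCGTG beginning 27 bases before it and TGANTCA beginning 9 bases before it, and these matches did not overlap each other. Syk held GCGTG at its second start, beginning 189 bases before it. No match to the 5 motifs lay in the windows of Trem1, Treml4, Hcst or the first start of Syk. These matches are letters in a window and were not tested as binding sites.

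Totals ran from 3556106 counts in Ahrr 1 to 41668336 in Ahrr 2, an 11.7-fold range, with 6300421 to 21939809 in WT. Levels are given as CPM, each gene's count scaled to a common library total. The limit of detection, taken as 3 counts, was 0.844 CPM in Ahrr 1 and 0.072 CPM in Ahrr 2 (counting error only). WT 2 stood apart through CT010467.1, a ribosomal RNA gene, which took 5.28% of its counts and at most 0.0679% elsewhere. Ahrr itself, the gene targeted, gave 4.604, 4.29 and 5.32 CPM in WT 1 to 3 and 2.25, 2.57 and 1.21 CPM in Ahrr 1 to 3. Its log2 fold change was -1.21 (SE 0.26, edgeR quasi-likelihood adjusted p = 0.0151), it lost the 0.05 threshold without WT 1 or without WT 3, and which part of the gene is missing is not given in the sources used here.

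All 6 tested genes of the group were lower in Ahrr libraries, with adjusted p under 0.05, in edgeR's fit over 11408 genes, in which 19.6% of genes passed in either direction and 9.95% passed as lower. For 5 of the 7 genes, all 3 Ahrr libraries lay below all 3 WT libraries in CPM. That pattern was seen in 12.8% of tested genes and its reverse in 23.9%. The counts for the group follow from how its genes were chosen and are not read as evidence. Trem2 and Syk were past the threshold in each of the 6 fits that left out 1 library, and the other 4 tested genes were each past it in 2 of those 6 fits. The RNA came from the non-adherent cells of a culture in bulk, so fewer cells of a type and less RNA per cell cannot be told apart.

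**Figure D1:**
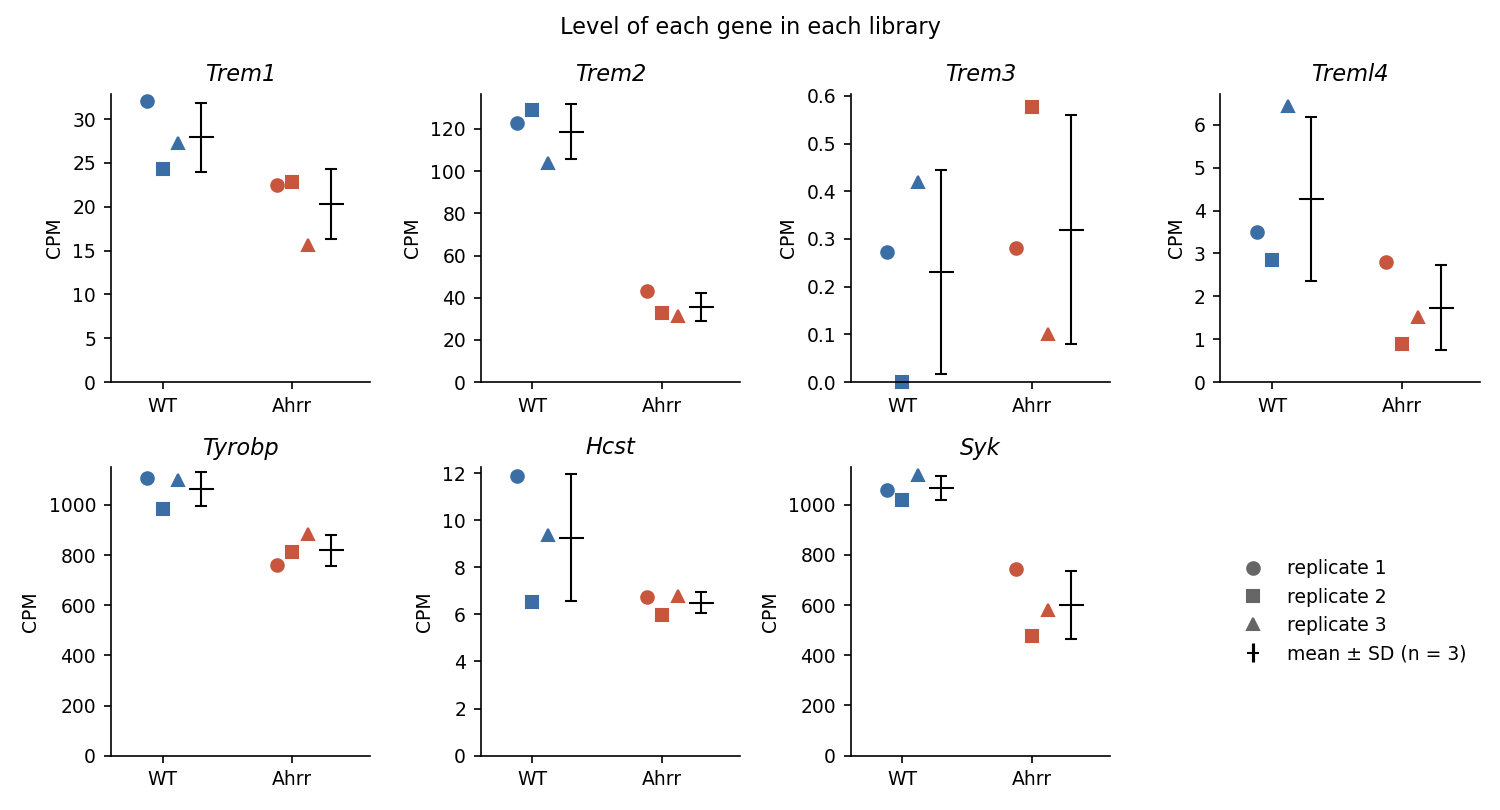
Level of each of the 7 genes in each library, in CPM on linear axes from 0, for WT (blue) and Ahrr (red), with the symbol giving the replicate and the bars the mean ± SD of 3 libraries. Trem2 and Syk show the clearest gaps between the groups, and Trem3 stays below 0.6 CPM in every library.

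Trem2, the lipid-sensing receptor, showed the largest difference of the 6 tested genes. Its gene (ENSMUSG00000023992.14) spans 48346401 to 48354147 on the + strand of chromosome 17. Trem2 gave 123, 129 and 104 CPM in WT 1 to 3 and 43.0, 32.6 and 31.1 CPM in Ahrr 1 to 3. The lowest WT library was therefore well above the highest Ahrr library, and the 3 Ahrr libraries were close to one another. The Trem2 mean was 119 ± 13.0 CPM in WT and 35.6 ± 6.47 CPM in Ahrr (SD, n = 3), a fitted log2 fold change of -1.86 (SE 0.16), or 0.276 of the WT level. Leaving out single libraries moved the Trem2 value only between -1.99 and -1.73.

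Trem1, the amplifier of inflammatory responses, differed much less. It spans 48232768 to 48246924 on the + strand of chromosome 17 (ENSMUSG00000042265.13), and gave 32.1, 24.3 and 27.3 CPM in WT 1 to 3 and 22.5, 22.8 and 15.7 CPM in Ahrr 1 to 3. The groups did not overlap, but the gap between WT 2 and Ahrr 2 was smaller than the spread within either group. The Trem1 mean was 27.9 ± 3.93 CPM in WT and 20.3 ± 4.03 CPM in Ahrr (SD, n = 3), with a log2 fold change of -0.55 (SE 0.16). Trem1 was no longer past the threshold without WT 1 (-0.44), WT 2 (-0.59), WT 3 (-0.60) or Ahrr 3 (-0.39), nor after thinning all libraries to the smallest total (-0.50).

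Treml4, a receptor of the same cluster that also pairs with DAP12, was expressed at a few CPM. It spans 48264295 to 48275360 on the + strand (ENSMUSG00000051682.15), and its counts were 77, 18 and 46 in WT 1 to 3 and 10, 37 and 15 in Ahrr 1 to 3. In CPM these were 3.51, 2.86 and 6.44 in WT and 2.81, 0.888 and 1.52 in Ahrr. Ahrr 1, the shallowest library, came within 0.05 CPM of WT 2, so the groups barely separated. The Treml4 log2 fold change was -1.78 (SE 0.42), and it lost the threshold without WT 1 (-1.92), WT 3 (-1.44), Ahrr 2 (-1.17) or Ahrr 3 (-1.87).

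Trem3, which in mice encodes a further DAP12-coupled receptor, had very few counts. It was at or below the limit of detection in WT 2, WT 3, Ahrr 1 and Ahrr 3, and above it in WT 1 and Ahrr 2. It lies between Trem1 and Treml4, from 48247777 to 48258841 on the + strand (ENSMUSG00000041754.5). Counts were 6, 0 and 3 in WT 1 to 3 and 1, 24 and 1 in Ahrr 1 to 3, or at most 0.576 CPM, and the groups overlapped. The 0 counts of WT 2 allow up to 0.476 CPM, so no difference in Trem3 could be seen at this depth.

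Trem1 and Trem3 are also expressed by neutrophils, and neutrophil markers were low and lower still in Ahrr libraries. The summed level of 11 neutrophil and granulocyte precursor markers was 18.6 to 34.3 CPM in WT and 3.86 to 12.7 CPM in Ahrr. It came from 4 of them, mainly Cxcr2 and Csf3r, which other myeloid cells also express. The other 7, among them Ly6g, S100a9, Mpo and Elane, had fewer than 10 counts over the 6 libraries. Cxcr2 changed by -2.25 on the log2 scale (SE 0.49, edgeR adjusted p = 0.0158, not past the threshold without Ahrr 2 or Ahrr 3), and Csf3r by -2.69 (SE 0.29, edgeR adjusted p = 0.00151). The part of such cells in the Trem1 values was not tested.

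Tyrobp, the gene of DAP12, had the highest level per length of the 7 genes and the smallest fold change of the 6 tested. It spans 30413760 to 30417585 on the + strand of chromosome 7 (ENSMUSG00000030579.10). Tyrobp gave 1108, 985 and 1099 CPM in WT 1 to 3 and 762, 811 and 883 CPM in Ahrr 1 to 3, with no overlap. The means were 1064 ± 68.3 CPM in WT and 819 ± 60.7 CPM in Ahrr (SD, n = 3), and the fitted log2 change was -0.45 (SE 0.10), or 0.731 of the WT level. Its size hardly moved when a library was left out, from -0.51 to -0.42, although Tyrobp lost the threshold without WT 1, WT 2, WT 3 or Ahrr 2.

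Hcst, the gene of DAP10, was far below Tyrobp per length: by the coding lengths used further on, the RPKM ratio of Tyrobp to Hcst was 89.2 ± 21.7 in WT and 93.5 ± 8.84 in Ahrr (SD, n = 3). The gene spans 30417712 to 30419854 on the - strand (ENSMUSG00000064109.8), tail to tail with Tyrobp, with 126 bases between the ends of the 2 genes. Hcst gave 11.9, 6.51 and 9.39 CPM in WT 1 to 3 and 6.75, 5.98 and 6.78 CPM in Ahrr 1 to 3. WT 2 lay inside the Ahrr range, so the groups overlapped, and the WT libraries spread more widely than the Ahrr libraries. The log2 fold change of Hcst was -0.67 (SE 0.20). Hcst was not past the threshold without WT 1 (-0.41), WT 3 (-0.70), Ahrr 2 (-0.58) or Ahrr 3 (-0.71), with DESeq2 (-0.64), among genes whose mean count reached 50 (-0.66), or in thinned libraries (-0.48).

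Syk, the kinase that docks on phosphorylated ITAMs, stayed past the threshold without any 1 library, as Trem2 did. Its gene spans 52583173 to 52648792 on the + strand of chromosome 13 (ENSMUSG00000021457.14), 21.6 Mb from Ahrr on the same chromosome. Syk gave 1060, 1020 and 1117 CPM in WT 1 to 3 and 744, 478 and 581 CPM in Ahrr 1 to 3. The WT libraries were tight and the Ahrr libraries spread, with Ahrr 1 the nearest to WT. The Syk mean was 1066 ± 48.8 CPM in WT and 601 ± 134 CPM in Ahrr (SD, n = 3), and the fitted log2 change was -0.90 (SE 0.17) and ranged from -1.10 without Ahrr 1 to -0.76 without Ahrr 2.

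Levels of the genes of the group were compared with one another only per length, as RPKM (CPM per kilobase). Their order was partly set by which length was used. With the length of the longest coding transcript, the WT means were 1782 ± 114 RPKM for Tyrobp, 199 ± 9.09 for Syk, 109 ± 11.97 for Trem2, 20.96 ± 6.10 for Hcst, 9.32 ± 1.31 for Trem1, 2.45 ± 1.10 for Treml4 and 0.233 ± 0.215 for Trem3 (SD, n = 3). No neighbours in that order overlapped in WT. In Ahrr the order was the same, at 1371 ± 102 RPKM for Tyrobp, 112 ± 25.0 for Syk, 32.7 ± 5.95 for Trem2, 14.7 ± 1.03 for Hcst, 6.79 ± 1.35 for Trem1, 0.997 ± 0.563 for Treml4 and 0.321 ± 0.241 for Trem3, and only Treml4 and Trem3 overlapped.

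With the union of all annotated exons as the length, Trem2 fell to 24.0 ± 2.63 RPKM in WT and 7.20 ± 1.31 RPKM in Ahrr, since its exon union of 4946 bases includes a retained intron, against 1088 bases for the coding transcript. Hcst was then 12.8 ± 3.74 RPKM in WT and 9.003 ± 0.629 in Ahrr. Trem2 was therefore above Hcst in WT by either length, and in Ahrr above it by coding length but overlapping it by exon union, where it also overlapped Trem1 (6.78 ± 1.35 RPKM). Hcst and Trem1, at 9.31 ± 1.31 RPKM in WT by exon union, overlapped there.

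Within the summed RNA of the 4 receptor genes of the group, the share of Trem2 was lower in Ahrr libraries. Treml1 and Treml2 of the same cluster were not part of this sum, and the shares restate the levels of genes chosen for their difference. By coding length, Trem2 was 89.7, 92.4 and 87.8% of the summed RPKM of the 4 receptor genes in WT 1 to 3 and 80.8, 77.5 and 82.2% in Ahrr 1 to 3. The groups did not overlap by exon union either, where the Trem2 share was 67.2 ± 5.59% in WT and 47.6 ± 3.85% in Ahrr (SD, n = 3). Trem1 made up most of the rest, at 7.74 ± 1.24% in WT and 16.7 ± 2.60% in Ahrr by coding length.

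The RNA of these 4 receptor genes was low beside that of the shared adaptor. By coding length the 4 receptor genes together gave 6.78, 7.79 and 5.92 RPKM per 100 RPKM of Tyrobp in WT 1 to 3 and 3.84, 2.85 and 2.36 in Ahrr 1 to 3, and by exon union the means were 2.24 ± 0.181 and 1.25 ± 0.315 (SD, n = 3). The groups did not overlap by either length. Syk per 100 RPKM of Tyrobp did not shift in every library: by coding length it was 10.6, 11.5 and 11.3 in WT 1 to 3 and 10.9, 6.55 and 7.32 in Ahrr 1 to 3, so that Ahrr 1 lay within the WT range.

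**Figure D2:**
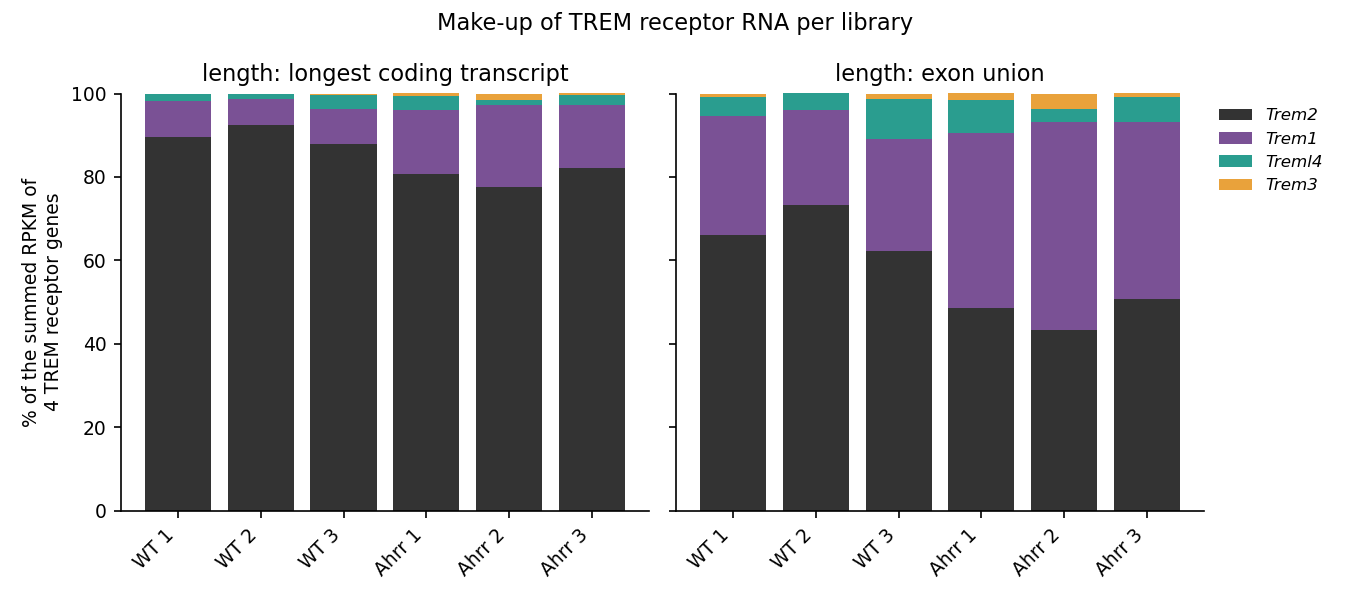
Share of each of the 4 TREM receptor genes in their summed RPKM in each library, in percent, by the length of the longest coding transcript (left) and by the exon union (right). The Trem2 share is lower in each Ahrr library than in each WT library with either length.

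The receptor genes lie in a cluster on chromosome 17 that spans 134 kb from the start of Trem1 to the end of Treml1. Within 200 kb, 5 tested genes were not among the 7, and 1 of them was lower and 0 higher in Ahrr libraries by edgeR's test, against 9.95% and 9.62% of all tested genes. At an unadjusted p under 0.05 the counts were 2 lower and 0 higher, as by limma-voom, and 1 and 0 by DESeq2. No share over all tested genes was taken at the unadjusted p. The gene past the threshold was Treml1, best known from platelets, which starts 5768 bases after the end of Trem2. Treml1 gave 2.87, 4.13 and 2.66 CPM in WT 1 to 3 and 1.41, 0.744 and 0.910 CPM in Ahrr 1 to 3. No Ahrr library reached the lowest WT library, and the fitted log2 change was -1.95 ± 0.32 (SE; edgeR adjusted p = 0.00618), which lost the threshold without Ahrr 2 (-1.63).

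Between Treml4 and Trem2 lie Treml2 and B430306N03Rik, with log2 fold changes of 0.53 (SE 0.24, edgeR adjusted p = 0.144) and 0.26 (SE 0.12, edgeR adjusted p = 0.152). Neither passed the threshold and their groups overlapped in CPM, with 10.2 ± 2.96 CPM in WT and 14.5 ± 5.28 CPM in Ahrr for Treml2 and 98.4 ± 17.5 and 123 ± 17.9 CPM for B430306N03Rik (SD, n = 3). No stretch as long as a 75-base read was shared within this family: none of the 75-base stretches of the coding transcripts of the 7 genes, Treml1 or Treml2 occurred in another gene's.

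**Figure D3:**
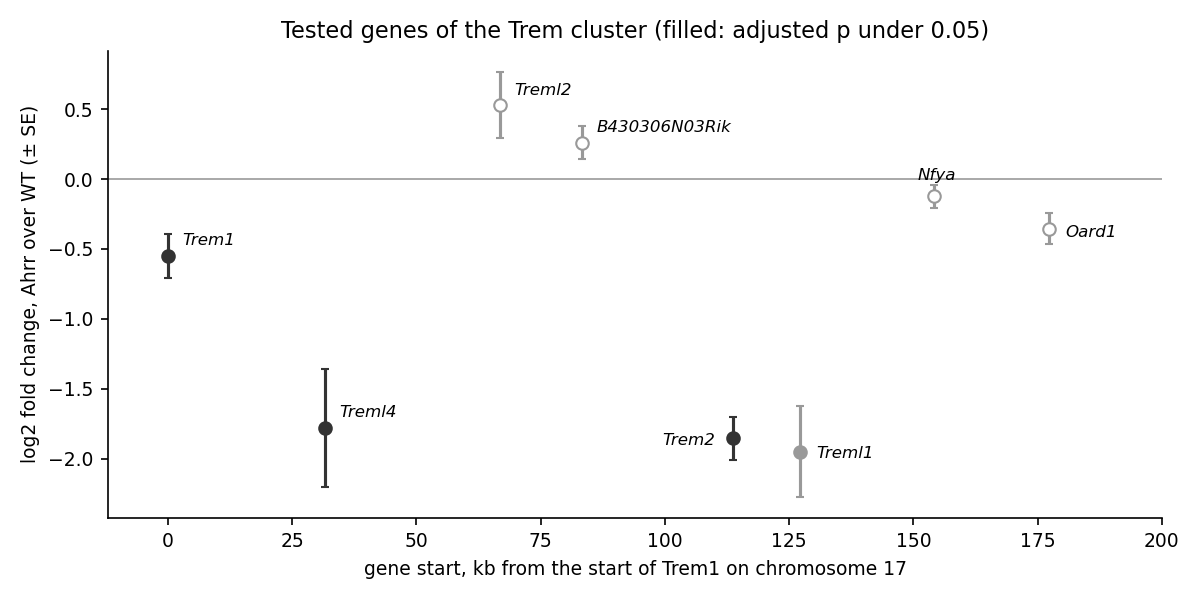
Log2 fold change of Ahrr over WT (± SE) for each tested gene of the Trem cluster, against the distance of its start from the start of Trem1 in kb, with filled points for adjusted p under 0.05 and black for the genes of the group. Treml2 and B430306N03Rik sit above 0 between Treml4 and Trem2, which are at -1.78 and -1.86.

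Around Tyrobp and Hcst, 16 other genes within 200 kb were tested, of which 4 were lower and 0 higher in Ahrr libraries by edgeR, DESeq2 or limma-voom. By edgeR, 9.95% of all tested genes were lower and 9.62% higher. At an unadjusted edgeR p under 0.05, 7 of the 16 were lower and 0 higher. The shares of all tested genes are at the adjusted threshold and cannot be set against this unadjusted count. Nfkbid, an inhibitor-of-NF-kappaB family member that starts just beyond Hcst, gave 19.1, 28.6 and 25.2 CPM in WT 1 to 3 and 11.2, 8.83 and 8.80 CPM in Ahrr 1 to 3. Its groups were well apart, and the fitted log2 change was -1.45 ± 0.20 (SE; edgeR adjusted p = 0.00310), past the threshold without any 1 library. Hspb6, a small heat shock protein gene, changed by -0.88 (SE 0.18, edgeR adjusted p = 0.0123), and lost the threshold without WT 1 or Ahrr 2. Alkbh6 changed by -0.48 (SE 0.12, edgeR adjusted p = 0.0288), not past the threshold without WT 1, WT 2, WT 3 or Ahrr 2. The span of Hspb6 overlaps Proser3 and Lin37 on the other strand, whose reads cannot be told apart where counting ignored strand. The fourth gene, Psenen, is described with the proteases. At Syk the only other tested gene within 200 kb, Auh, changed by 0.11 (SE 0.11, edgeR adjusted p = 0.509).

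For each of the 5 members whose mean count reached 50, the 3 genes with the most similar pattern over the 6 libraries were found among 10033 tested genes, as the root-mean-square difference (RMS) of mean-centred log2 CPM. Nearest to Trem2 were Cd83, a surface protein of activated antigen-presenting cells (RMS 0.115), Dbp, a clock-regulated transcription factor (0.126), and Cd14, the co-receptor for lipopolysaccharide (0.145). Their log2 fold changes were -1.66 (SE 0.14) for Cd83, -1.91 (SE 0.25) for Dbp and -1.66 (SE 0.23) for Cd14. Nearest to Trem1 were Serpinb6b (RMS 0.0877), Osbpl3 (0.0921) and Tiparp, the gene of a mono-ADP-ribosyltransferase (0.111).

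Nearest to Tyrobp were Ost4 (RMS 0.0290), Qsox1 (0.0361) and Lgals3bp (0.0381), to Hcst Ino80b (0.106), Naprt (0.109) and Arhgef4 (0.125), and to Syk Dhrs3 (0.0376), Tmem221 (0.0508) and Abcb1a (0.0540). The members were not each other's nearest genes. The RMS includes the size of a change, so genes with different fold changes lie apart by it even where they move together. The ranks between members therefore do not show that their patterns are unlike. The member nearest to Trem2 was Syk, at rank 154 (RMS 0.476), and Tyrobp was at rank 893 (RMS 0.724). From Syk, the nearest member was Tyrobp at rank 835 (RMS 0.325). The likeness is a description of 6 libraries that share a depth range and a culture.

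The other genes of the pathway were followed in 8 lists, and in no list did every tested gene pass the threshold in the same direction. Of 17 other TREM-like genes and receptors of DAP12 or DAP10, 11 had a row and were tested: 5 were lower, 1 was higher, and 5 did not pass the threshold. Over all tested genes 9.95% were lower and 9.62% higher. The median log2 fold change was -0.23 against 0.01 over all tested genes. The activating receptors Sirpb1a, Sirpb1b and Sirpb1c, relatives of SIRP-alpha that signal through DAP12, were all lower. Sirpb1b gave 34.7, 35.9 and 32.6 CPM in WT 1 to 3 and 24.5, 18.6 and 19.3 CPM in Ahrr 1 to 3, with no overlap and a fitted log2 change of -0.85 ± 0.13 (SE; edgeR adjusted p = 0.00519).

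The log2 fold change was -0.66 for Sirpb1c (SE 0.11, edgeR adjusted p = 0.00672) and -0.66 for Sirpb1a (SE 0.17, edgeR adjusted p = 0.0298). Sirpb1b and Sirpb1c were past the threshold in each fit without 1 library, and Sirpb1a, of those 6 fits, only in the one without Ahrr 1. These 3 genes share 32.4 to 58.1% of their 75-base stretches with each other, so reads could be split between them and their separate values are uncertain. Sirpb1b also overlaps Gm37468 on the other strand.

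Cd300lb, an activating CD300 receptor, went from 190 ± 9.80 to 145 ± 30.0 CPM (SD, n = 3; log2 fold change -0.48, SE 0.14, edgeR adjusted p = 0.0473), a call that, of the 6 fits without a library, held only in the one without Ahrr 1. The gene that rose was Cd200r4, an activating member of the CD200 receptor family, from 88.9 ± 8.47 to 136 ± 22.1 CPM (SD, n = 3; log2 fold change 0.55, SE 0.11, edgeR adjusted p = 0.0119, not past the threshold without WT 2 or WT 3). Clec5a, another DAP12 receptor, was at 2.92 ± 0.868 and 3.13 ± 0.708 CPM. Klrk1, the gene of NKG2D and the classic partner of DAP10, had no row, which means fewer than 10 counts over the 6 libraries.

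Syk also serves receptors that use the Fc receptor gamma chain or an ITAM-like tail. Of 8 tested genes of that list, 4 were lower and 0 higher by edgeR's test, beside 9.95% and 9.62% over all tested genes. There were also 0 higher at an unadjusted p under 0.05 and by DESeq2 or limma-voom. The median log2 fold change was -0.50. Clec4d, a C-type lectin that recognises mycobacterial glycolipid, gave 140, 185 and 137 CPM in WT 1 to 3 and 66.1, 47.7 and 27.5 CPM in Ahrr 1 to 3. The groups were far apart, and its fitted log2 change was -1.84 ± 0.28 (SE; edgeR adjusted p = 0.00460). Its partner lectin Clec4e (Mincle) changed by -0.74 (SE 0.17, edgeR adjusted p = 0.0186), and lost the threshold without Ahrr 3.

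Fcgr3, the gene of the low-affinity IgG receptor III, gave 1318, 1277 and 1207 CPM in WT 1 to 3 and 910, 686 and 744 CPM in Ahrr 1 to 3, a fitted log2 change of -0.78 ± 0.14 (SE; edgeR adjusted p = 0.00816). Fcgr4 went from 898 ± 46.9 to 454 ± 185 CPM (SD, n = 3), a fitted log2 change of -1.06 ± 0.26 (SE; edgeR adjusted p = 0.0228), and of the 6 fits without a library was past the threshold only without Ahrr 1 or Ahrr 2. The Fc receptor gamma chain itself, Fcer1g, stood at 587 ± 39.9 CPM in WT and 583 ± 38.1 CPM in Ahrr (SD, n = 3; log2 fold change -0.08, SE 0.10, edgeR adjusted p = 0.584). The beta-glucan receptor Clec7a likewise did not pass the threshold, at 2281 ± 26.1 and 2277 ± 461 CPM.

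**Figure D4:**
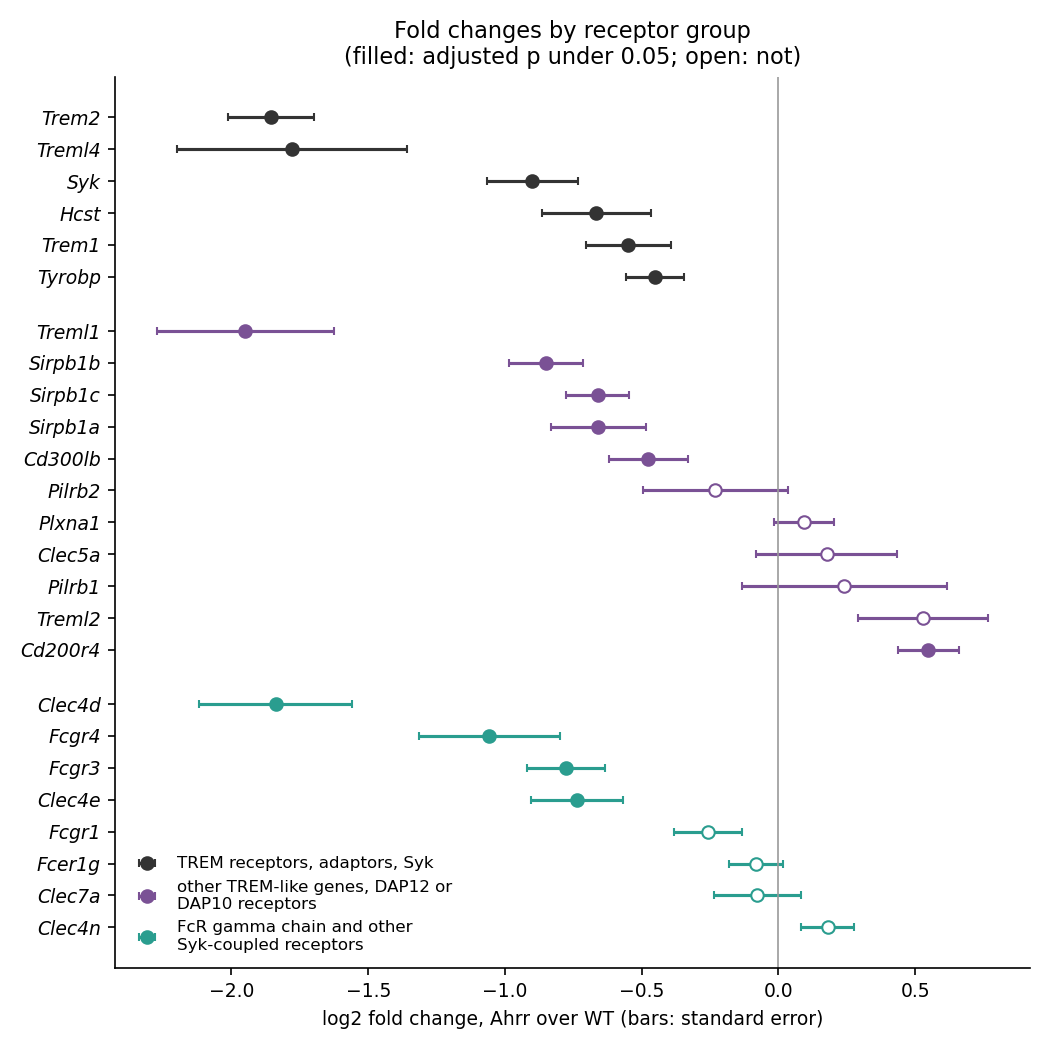
Log2 fold change of Ahrr over WT (± SE) for the 6 tested genes of the group (black), the 11 tested TREM-like genes and DAP12 or DAP10 receptors (purple) and the 8 tested Syk-coupled receptors (green), with filled points for adjusted p under 0.05. Only Cd200r4 is filled to the right of 0.

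Of 32 kinases, adaptors and effectors around Syk, 29 were tested, 2 were higher and 1 was lower, beside 19.6% called in either direction over all tested genes, and the median log2 fold change was 0.09. At an unadjusted edgeR p under 0.05 there were 6 higher and 2 lower, a level at which no share over all genes was taken. Without Ahrr 1 the adjusted counts were 4 and 4, in a fit where 3857 genes passed over the whole table, against 2232 with all libraries. Src, the founding member of the family that phosphorylates ITAMs, rose from 2.37 ± 0.873 to 7.15 ± 2.98 CPM (SD, n = 3; log2 fold change 1.53, SE 0.32, edgeR adjusted p = 0.0132, not past the threshold without Ahrr 2). Its relative Lyn was at 327 ± 30.4 and 358 ± 24.9 CPM (edgeR adjusted p = 0.698).

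The calcium channel gene Itpr2 rose by 0.26 on the log2 scale (SE 0.07, edgeR adjusted p = 0.0308) and the adaptor gene Grb2 fell by 0.33 (SE 0.08, edgeR adjusted p = 0.0256), but of the 6 fits without a library Itpr2 passed only in the one without Ahrr 1, and Grb2 lost the threshold without WT 1, WT 2, Ahrr 2 or Ahrr 3. Btk and Plcg2, which act downstream of Syk, had log2 fold changes of 0.24 (SE 0.08, edgeR adjusted p = 0.0737) and 0.09 (SE 0.12, edgeR adjusted p = 0.633).

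Among 12 inhibitors of ITAM signalling, all tested, 2 were higher and 1 was lower, beside 19.6% called over all genes, with a median log2 fold change of -0.04. At an unadjusted edgeR p under 0.05 there were 4 higher and 2 lower, with no share over all genes taken at that level. Ubash3b, the gene of the phosphatase Sts-1 that dephosphorylates Syk, gave 70.8, 63.2 and 76.9 CPM in WT 1 to 3 and 110, 136 and 126 CPM in Ahrr 1 to 3. All 3 Ahrr libraries were above all WT libraries, as in 23.9% of tested genes. The fitted log2 change was 0.76 ± 0.09 (SE; edgeR adjusted p = 0.00217), past the threshold in each fit without 1 library. Ptpn22, the gene of a phosphatase of Src-family and Syk-family kinases, went from 14.8 ± 6.22 to 5.66 ± 2.76 CPM (SD, n = 3; log2 fold change -1.73, SE 0.43, edgeR adjusted p = 0.0243, of the 6 such fits past the threshold only without Ahrr 1 or Ahrr 3). Ptpn11, the gene of SHP-2, rose by 0.25 on the log2 scale (SE 0.07, edgeR adjusted p = 0.0439), of the same 6 fits past the threshold only without Ahrr 1.

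Inhibitory receptors restrain such signals. Of 12 genes listed here as such, all tested, 4 were higher and 2 were lower by edgeR's test, against 9.62% and 9.95% of all tested genes. Their median log2 fold change was 0.30, and whether each is inhibitory in these cells was not tested. The counts were 1 and 1 without WT 1 or without WT 2, fits in which 694 and 965 genes passed over the whole table, against 2232 with all libraries. With upper-quartile scaling they were 3 and 2. Cd200r1, which restrains macrophages on binding CD200, gave 156, 143 and 155 CPM in WT 1 to 3 and 224, 260 and 223 CPM in Ahrr 1 to 3. The groups were separate and tight, with a fitted log2 change of 0.57 ± 0.08 (SE; edgeR adjusted p = 0.00411). In the other direction Cd300a, a phospholipid-binding inhibitory receptor, gave 593, 567 and 620 CPM in WT 1 to 3 and 393, 218 and 264 CPM in Ahrr 1 to 3, a fitted log2 change of -1.10 ± 0.20 (SE; edgeR adjusted p = 0.00780). Both calls held in each fit without 1 library.

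The other 4 calls in the list of inhibitory receptors rested on particular libraries. Cd33, a sialic acid-binding lectin, changed by 0.66 on the log2 scale (SE 0.15, edgeR adjusted p = 0.0188) and of the 6 fits without a library was past the threshold only in those without an Ahrr library. Lilrb4a changed by 0.46 (SE 0.11, edgeR adjusted p = 0.0203), lost without WT 1, WT 2, WT 3 or Ahrr 2. It overlaps Gm40645 on the other strand and Gm49339 on the same strand. Siglece changed by 1.25 (SE 0.37, edgeR adjusted p = 0.0460) from 2.73 ± 2.01 to 6.28 ± 1.85 CPM (SD, n = 3), with overlapping groups, and of those 6 fits was past the threshold only without WT 3 or Ahrr 1. Pirb changed by -0.41 (SE 0.11, edgeR adjusted p = 0.0306), of those 6 fits past it only without Ahrr 1.

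Of 9 ligands of TREM receptors and NKG2D, 5 were tested and 0 passed the threshold by edgeR, DESeq2 or limma-voom. By edgeR, 19.6% of all tested genes passed. At an unadjusted edgeR p under 0.05 the count of ligands was also 0. Apoe, a lipoprotein ligand of TREM2, was low and variable, at 6.46 ± 1.98 CPM in WT and 4.41 ± 3.39 CPM in Ahrr (SD, n = 3; log2 fold change -0.48, SE 0.39, edgeR adjusted p = 0.410). Lgals3, a galectin that binds TREM2, was at 1556 ± 206 and 1453 ± 358 CPM (edgeR adjusted p = 0.527).

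TREM2 protein is cut from the surface by ADAM proteases and its stub is cleared by gamma-secretase, and 2 of the 7 genes of that machinery passed the threshold, both lower, beside 9.95% lower over all tested genes. Neither was past it without WT 1, without WT 3 or without Ahrr 3, and 1 was with DESeq2. Psenen, the gamma-secretase subunit PEN-2, changed by -0.46 on the log2 scale (SE 0.13, edgeR adjusted p = 0.0330), and Psen2 by -0.26 (SE 0.08, edgeR adjusted p = 0.0496). The groups overlapped for both in CPM, Psen2 was past the threshold, of the 6 fits without a library, only without Ahrr 1, and Psenen lost it without WT 1, WT 3 or Ahrr 3. Psenen overlaps U2af1l4 and Gm49396 on the other strand. The sheddase gene Adam10 was at 410 ± 45.1 and 439 ± 65.4 CPM, and Adam17 at 181 ± 7.43 and 194 ± 10.8 CPM (SD, n = 3), neither past the threshold.

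The last list held 28 genes known from lipid-loaded macrophages and from microglia that have switched on a TREM2-linked programme. Of 27 tested, 6 were higher and 5 were lower in Ahrr libraries, beside 9.62% and 9.95% over all tested genes. The median log2 fold change was -0.08, so the list was divided. Ch25h, the enzyme that makes 25-hydroxycholesterol, was low in WT, at 1.504, 0.159 and 1.401 CPM, and reached 10.7, 86.3 and 46.2 CPM in Ahrr 1 to 3. Every Ahrr library was above every WT library, with wide spread, and the fitted log2 change was 5.35 ± 0.74 (SE; edgeR adjusted p = 0.00329). Itgax, the integrin CD11c, gave 57.7, 49.4 and 46.9 CPM in WT 1 to 3 and 143, 218 and 166 CPM in Ahrr 1 to 3, a fitted log2 change of 1.70 ± 0.15 (SE; edgeR adjusted p = 0.000696).

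Ccl6, a macrophage chemokine, rose from 7237 ± 1528 to 16376 ± 2362 CPM (SD, n = 3; log2 fold change 1.11, SE 0.16, edgeR adjusted p = 0.00371). Plin2, which coats lipid droplets, gave 1969, 1914 and 1969 CPM in WT 1 to 3 and 989, 753 and 749 CPM in Ahrr 1 to 3, a fitted log2 change of -1.31 ± 0.14 (SE; edgeR adjusted p = 0.00158). Fabp5, a fatty acid chaperone, fell by 0.67 (SE 0.10, edgeR adjusted p = 0.00452). The calls for Ch25h, Itgax, Ccl6, Plin2 and Fabp5 held in each fit without 1 library.

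Spp1 (osteopontin) rose by 1.94 on the log2 scale (SE 0.42, edgeR adjusted p = 0.0151), not past the threshold without WT 1 or WT 3, from 95.4 ± 22.9 to 388 ± 261 CPM (SD, n = 3). Of the cathepsin genes, Ctsl rose by 0.71 (SE 0.15, edgeR adjusted p = 0.0142, lost without WT 1, WT 3 or Ahrr 2), and Ctsb fell by 0.74 (SE 0.15, edgeR adjusted p = 0.0103, lost without WT 1, WT 2 or Ahrr 3). The remaining 3 called genes, named outside the naming rule, were Lpl (0.52), Ctsd (-0.46) and Hexa (-0.41). Ch25h, Ctsl, Ctsb and Hexa overlap another gene on the other strand, and Ctsl, Ctsd and Spp1 one on the same strand. These overlaps limit what the counts of those genes can be assigned to.

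**Figure D5:**
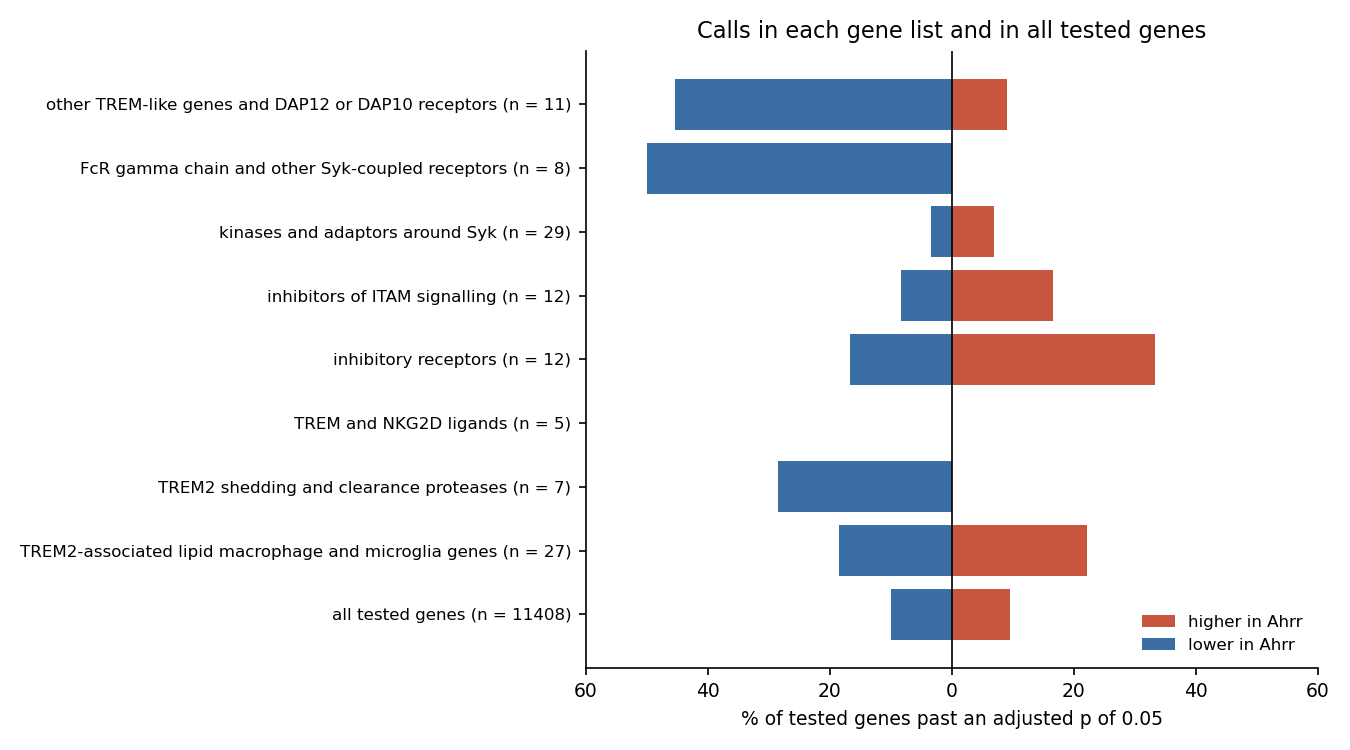
Percentage of the tested genes of each list with adjusted p under 0.05, lower in Ahrr to the left (blue) and higher to the right (red), with all 11408 tested genes at the bottom. The lists of TREM-like or DAP12 and DAP10 receptors and of Syk-coupled receptors hold mostly lower calls, the inhibitory receptors 4 higher and 2 lower, and the list of TREM2-associated genes is divided between both sides.

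The marker lists bear on the label of the cells. All 8 macrophage markers had a row, with a summed level of 21932 to 27583 CPM in WT and 16830 to 24110 CPM in Ahrr, and so did all 8 alveolar macrophage markers, with 36120 to 38974 CPM in WT and 35221 to 37640 CPM in Ahrr. The second sum was mostly Chil3, at 35588 ± 1299 CPM in WT and 34277 ± 1492 CPM in Ahrr (SD, n = 3), and Krt79 was at 0 to 0.420 CPM. Within the first list Csf1r, the receptor for the growth factor CSF-1, was lower (log2 fold change -0.65, SE 0.17, edgeR adjusted p = 0.0304, of the 6 fits without a library past the threshold only without Ahrr 1) and Mrc1 higher (0.59, SE 0.11, edgeR adjusted p = 0.00766). Csf1r overlaps Hmgxb3 on the other strand. Within the second, Car4 (78.5 ± 43.96 to 709 ± 417 CPM; SD, n = 3), Itgax and Pparg were higher. The other tested genes of that list did not pass the threshold and went both ways. Marco changed by -0.51 on the log2 scale (SE 0.18, edgeR adjusted p = 0.0765) and Fabp4 by -0.53 (SE 0.20, edgeR adjusted p = 0.0878). Siglecf changed by 0.39 and Chil3 by -0.13. None of the 7 mast cell, 5 lymphocyte or 5 erythroid markers had a row, which bounds each at fewer than 10 counts over the 6 libraries. Whether a shift in macrophage state goes with the TREM values was not tested.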

How the data were processed

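Polyadenylated RNA from 6 samples was sequenced as 75 bp single-end reads (TruSeq RNA kit v2 from 100 ng RNA, HiSeq1500), per the labels' protocols. The submitters' processing notes name CASAVA 1.8.2, fastp 0.20.0, STAR 2.7.10b, SAMtools 1.16.1, R 4.3.1, DESeq2 1.40.2 and build mm10, without their roles. The counting tool, its annotation and its strand setting are not given in the sources used here. The authors deposited a table of raw counts for 53465 features and a table of DESeq2-normalized values (a signal: counts divided by a size factor) for 16111 named genes with at least 10 counts in all. Multiplying the deposited normalized signal by size factors recomputed from the raw counts gave whole reads for 100% of values within 0.001 reads, and these counts were used. Rows of the raw table without a named counterpart held 0.0232 to 0.0511% of counts. No column was without a sample.

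Counts were tested with edgeR 4.0.16 (quasi-likelihood test, TMM factors of 0.904 to 1.04, filterByExpr, genotype only) over 11408 genes, with Benjamini-Hochberg adjustment and a threshold of 0.05. The biological coefficient of variation was 13.0%. The script was tested on simulated counts. Coordinates and lengths are from GENCODE M21 (GRCm38), which matched 16094 of the gene IDs, 14479 in the same version. CPM values use library totals, while fold changes use TMM-scaled totals. The precision per sample follows its total, from 3556106 to 41668336 counts, and limits cover counting error only.

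The members and lists were chosen with earlier results of these data known. Named were the 7 members, the genes of each pathway list past the threshold (if over 8, the 8 largest changes among genes averaging 50 counts or more), the 3 genes nearest in pattern to each member with such a mean (prior count 2), and genes within 200 kb of a member if past the threshold. Alternatives were RLE and upper-quartile scaling, no filter, DESeq2 1.42.0, genes averaging 50 counts or more, limma-voom 3.58.1, a replicate block, binomial thinning to the smallest total, each library left out, and, added after seeing the data, RPKM by the longest coding transcript.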

Additional observations from a re-analysis of the deposited data

How the results depend on the processing

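Of all tested genes, 2232 passed the threshold, 1390 with the replicate block, 1228 after thinning to the smallest total, and 694 (without WT 1) to 3857 (without Ahrr 1) when 1 library was left out. With the other settings the number of genes was 1967 to 2859. Upper-quartile scaling made 41.8% of the called genes higher in Ahrr (933 higher, 1301 lower) against 49.1% (1097 and 1135). Of the members, 6 passed, 5 with DESeq2 and with the replicate block, 4 of 5 fitted among genes averaging 50 counts or more, 3 after thinning, and 2 to 6 when 1 library was left out. Of the genes in the pathway lists 35 passed, and 16 (without WT 1) to 48 (without Ahrr 1) when 1 library was left out. Of 751 fold changes of the members, called list and neighbouring genes and Ahrr under an alternative, 594 kept their side of the threshold and 157 lost it, with the same sign as before. The nearest genes of each member were the same 3 with a prior count of 0.5. The replicate numbers were not taken as pairs. Same-numbered libraries deviated from their group means with correlations of -0.17, 0.07 and 0.13, and differently numbered ones with -0.21 to 0.16. With 3 libraries per group these values cannot decide whether same-numbered libraries shared a batch. Under the block Hcst was the only member not past the threshold (-0.53). The cause of these shifts was not tested. Depth limits Trem3, with at most 24 counts in a library, and Treml4, with at most 77.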
